A study of Danio rerio with 6 samples.

Results

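The annexin genes anxa1a, anxa1b, anxa1c, anxa2a, anxa2b, anxa3b, anxa4, anxa5b, anxa11a and anxa13 were read on zebrafish arrays. Every probe set that the platform annotation assigns to 1 of these genes, and to no other gene, was used. The 10 genes held 15 of the 15502 probe sets tested. The genes were chosen by family name from earlier results of the same comparison, in which annexin differences had been seen. Their differences, and the calls of the fit defined below, are therefore a description and give no support for a change. EWS-FLI1 embryos carried Tg(HSP:EWS-FLI1), a transgene that puts EWS-FLI1 under a heat shock promoter. EWS-FLI1 is a human fusion protein that drives Ewing sarcoma. Control embryos were of the wild-type AB strain. At 50% epiboly, early in gastrulation, embryos of either line spent 30 min at 39 °C and then 2 h at 28.5 °C before RNA was taken, so the heat shock itself was common to them. Each group had 3 arrays, and each array held RNA from a pool of 40 whole embryos. The labels do not say which clutches the pools came from, and the level of the fusion transcript was not analysed here.

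Annexins are soluble proteins that attach to acidic phospholipids, phosphatidylserine among them, when calcium rises. They share a core of repeated helical domains that holds the calcium sites, and a variable N-terminus that sets the binding partners of each member. In vertebrates they act in membrane repair, in vesicle docking and exocytosis, and in linking membranes to actin. They are abundant in epithelia. Zebrafish carry duplicated copies of several members, and the letters a, b, c and d mark such copies.

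Values are log2 RMA values, so a difference of -1 means that the signal was lower by a factor of 2. Each difference is EWS-FLI1 minus control. A probe set is said to be called when its limma p-value, adjusted over all 15502 probe sets, lay under 0.05. Such calls were made at 11.8% of all probe sets, with 5.38% rising and 6.46% falling. Of the 15 annexin probe sets, 4 fell (anxa1c, anxa2a, anxa2b and 1 of anxa4), 1 rose (the other of anxa4) and 10 were not called. Because the genes were chosen from this comparison, nothing is read from these counts. The median difference was -0.03 over the 15 annexin probe sets and 0 over all probe sets, with 8 annexin probe sets below 0 and 7 above it. Those above 0 include every probe set of anxa5b, so this median does not weigh each gene alike. All EWS-FLI1 values lay below all control values at 5 annexin probe sets and above them at 2, where 14.8% of all probe sets lay wholly below and 14.1% wholly above, 29.0% together. In whole embryo pools, fewer cells of a type and less RNA per cell cannot be told apart.

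**Figure D1:**
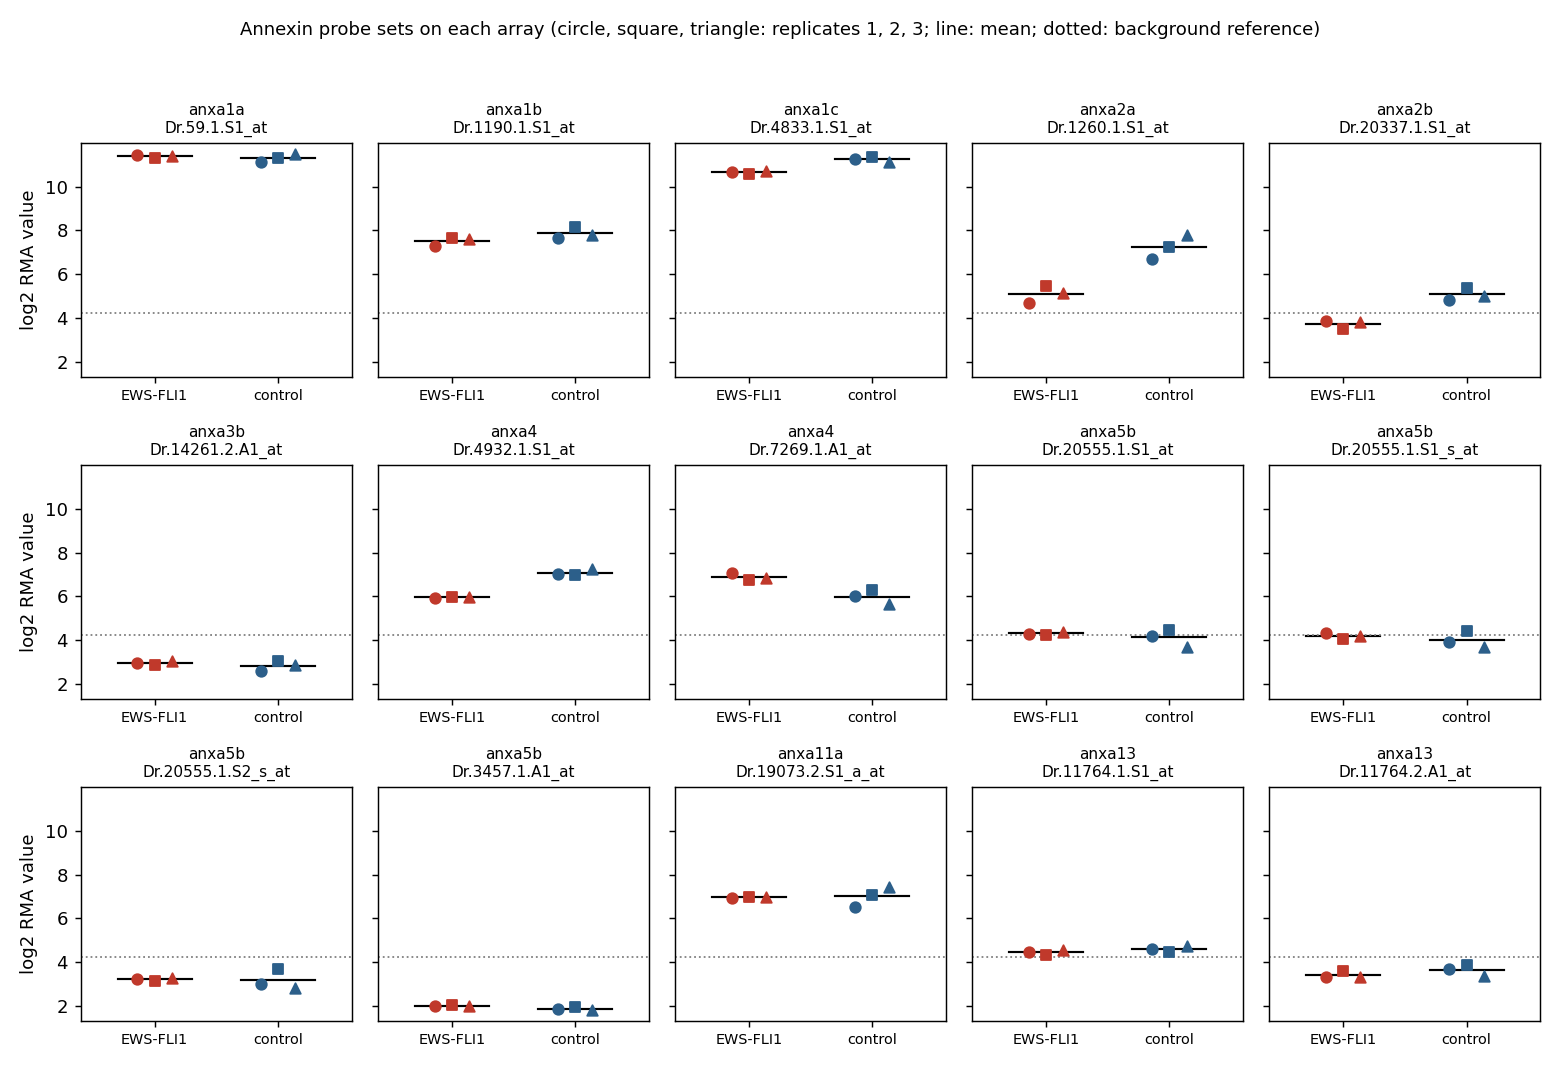
Log2 RMA value (vertical axis, the same in all panels) of each of the 15 annexin probe sets on the 3 EWS-FLI1 arrays (red, left) and the 3 control arrays (blue, right). Circles, squares and triangles are replicates 1, 2 and 3, the line is the group mean and the dotted line is the background reference of 4.23. The groups lie clearly apart for anxa1c, anxa2a, anxa2b and both anxa4 probe sets, in opposite directions for those of anxa4, and narrowly for anxa1b and 1 dim anxa5b probe set.

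The annexin A2 copies showed the largest differences of the family. ANXA2 in mammals forms a tetramer with the S100 protein S100A10 and links membranes to actin at sites of endocytosis, exocytosis and repair. At the anxa2a probe set the log2 values were 4.67, 5.46 and 5.15 in EWS-FLI1 embryos, against 6.72, 7.25 and 7.79 in controls. The highest EWS-FLI1 array lay 1.26 below the lowest control array. The means were 5.09 ± 0.40 in EWS-FLI1 embryos and 7.25 ± 0.54 in controls (SD, n = 3 each), a difference of -2.16 (SE 0.27), or a ratio of 0.224. Among all tested probe sets this was the eighth largest fall. The group spread was also wide, and the SD of anxa2a was the largest of the annexin probe sets in both groups.

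The second copy, anxa2b, gave log2 values of 3.86, 3.49 and 3.83 in EWS-FLI1 embryos, against 4.84, 5.39 and 5.03 in controls. All 3 EWS-FLI1 arrays lay below every control array. The means were 3.73 ± 0.21 in EWS-FLI1 embryos and 5.09 ± 0.28 in controls (SD, n = 3 each), a difference of -1.36 (SE 0.16). The EWS-FLI1 mean lay within the background reference, a log2 value of 4.23 that marks the 95th percentile of 44 bacterial and tag control probe sets. The size of the anxa2b difference therefore depends on the background, whereas both means of anxa2a were above it. With each array left out in turn, the difference stayed between -2.43 and -1.89 for anxa2a and between -1.48 and -1.21 for anxa2b. Each of these probe sets is the only one of its gene, so neither difference has a check within the array.

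The probe sets of anxa4 gave opposite results. ANXA4 in mammals is a membrane-binding annexin typical of epithelial cells. At the probe set whose identifier ends in S1_at the log2 values were 5.92, 5.99 and 5.95 in EWS-FLI1 embryos, against 7.01, 6.97 and 7.24 in controls. These 3 EWS-FLI1 values agreed to within 0.07, and the highest of them lay 0.98 below the lowest control. The means were 5.95 ± 0.04 in EWS-FLI1 embryos and 7.07 ± 0.15 in controls (SD, n = 3 each), a difference of -1.12 (SE 0.10).

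At the other anxa4 probe set, whose identifier ends in A1_at, the log2 values were 7.07, 6.74 and 6.84 in EWS-FLI1 embryos, against 6.03, 6.27 and 5.67 in controls. Here every EWS-FLI1 array lay above every control array. The means were 6.88 ± 0.17 in EWS-FLI1 embryos and 5.99 ± 0.30 in controls (SD, n = 3 each), a difference of 0.89 (SE 0.16). All 4 of these group means were above the background reference. The annotation ties both probe sets to the same gene, the first through an mRNA record and the other through an expressed sequence tag, as the form of their accessions shows. By their identifiers, these probe sets come from different sequence clusters. Which transcripts each of them reads was not tested, so the data give no single direction for anxa4.

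**Figure D2:**
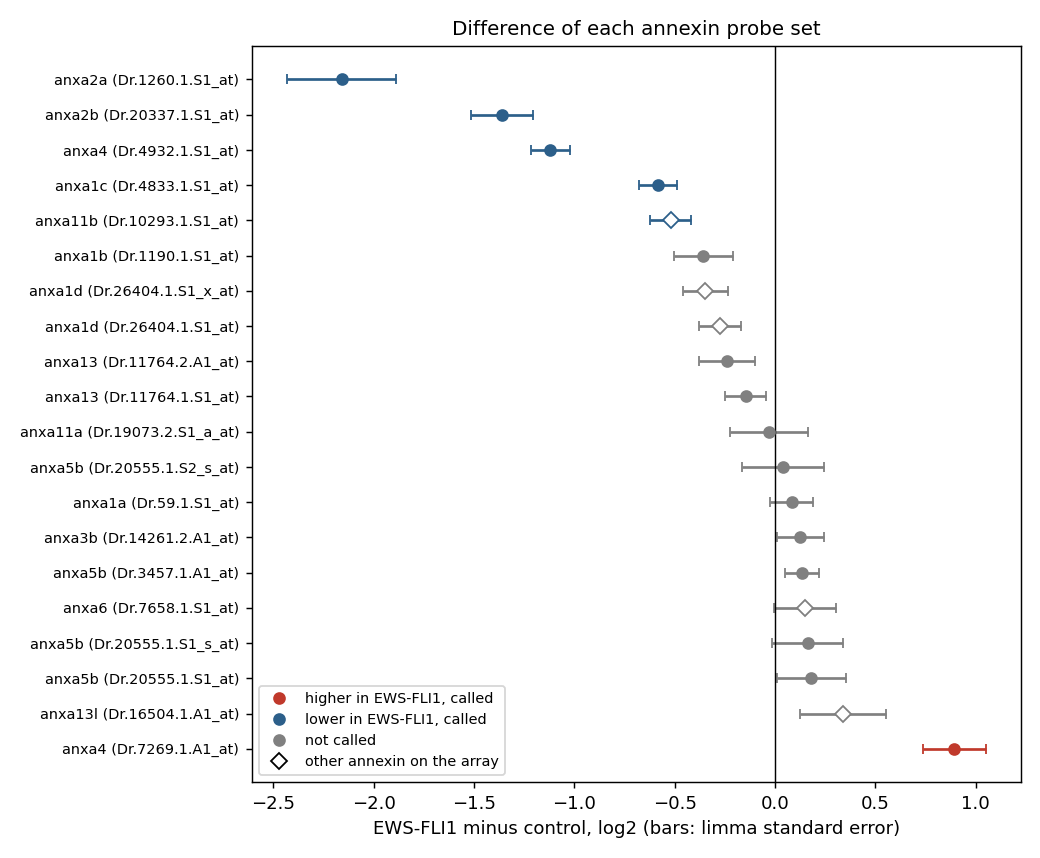
Log2 difference, EWS-FLI1 mean minus control mean (horizontal axis), of each annexin probe set, with bars for the limma standard error. Filled circles are the 10 genes described, open diamonds the other annexins of the array, red and blue the called rises and falls, and grey those not called. The differences run from -2.16 at anxa2a to 0.89 at 1 anxa4 probe set, and the other anxa4 probe set lies at -1.12.

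The annexin A1 copies were each measured well above background except anxa1d. Mammalian ANXA1 is a glucocorticoid-induced protein that limits inflammation and also binds membranes in epithelia. At anxa1c the log2 values were 10.68, 10.6 and 10.72 in EWS-FLI1 embryos, against 11.28, 11.35 and 11.12 in controls. The groups did not overlap, and the means of 10.67 ± 0.06 in EWS-FLI1 embryos and 11.25 ± 0.12 in controls differed by -0.58 (SE 0.09, SD over n = 3 each). At anxa1b the log2 values were 7.28, 7.64 and 7.61 in EWS-FLI1 embryos, against 7.65, 8.15 and 7.8 in controls. These groups were parted by only 0.01, and the difference of -0.36 (SE 0.15) was not called.

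At anxa1a the log2 values were 11.44, 11.32 and 11.42 in EWS-FLI1 embryos, against 11.13, 11.3 and 11.5 in controls. The EWS-FLI1 values lay inside the control range, and the difference of 0.08 (SE 0.11) was not called. The copies therefore did not share 1 value, with 0.08 at anxa1a and -0.58 at anxa1c. In the RefSeq gene order of assembly GRCz12tu, anxa1d, anxa1c and anxa1b are direct neighbours, while anxa1a lies elsewhere. The differences within that run of neighbours were -0.35 and -0.27 at the probe sets of anxa1d, -0.58 at anxa1c and -0.36 at anxa1b, of which the one at anxa1c was called. Near-identical copies can share probes, and how far these probe sets cross-hybridise was not tested.

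anxa5b was read by 4 probe sets that gave similar small values. Mammalian ANXA5 binds exposed phosphatidylserine and is the basis of the common stain for apoptotic cells. At the brightest of the 4 the log2 values were 4.3, 4.25 and 4.38 in EWS-FLI1 embryos, against 4.21, 4.47 and 3.71 in controls. The EWS-FLI1 arrays fell between control replicates 1 and 2, and control replicate 3 lay lower. The differences at the 4 probe sets were 0.18 (SE 0.17), 0.16 (SE 0.18), 0.04 (SE 0.20) and 0.13 (SE 0.09), and none was called. The first 3 of these come from 1 sequence cluster by their identifiers and are not independent readings. The difference of 0.13 belongs to the fourth, where the groups did not overlap, with EWS-FLI1 values of 1.99, 2.07 and 2.0 against control values of 1.87, 1.98 and 1.81. That probe set lay far inside the background reference. At the brightest, the control mean of 4.13 was within the reference and the EWS-FLI1 mean of 4.31 barely above it. The others of its cluster were within it in both groups. No anxa5b probe set was thus clear of background, so these values do not show whether the gene changed.

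The remaining chosen genes, anxa11a, anxa13 and anxa3b, gave differences no larger than 0.24 in size. anxa11a belongs to the annexin A11 group, whose human member ties RNA granules to lysosomes. Its log2 values were 6.95, 6.98 and 6.99 in EWS-FLI1 embryos, against 6.53, 7.05 and 7.43 in controls. The EWS-FLI1 arrays agreed to within 0.04, while the controls spread over 0.9 around them, and the difference was -0.03 (SE 0.19). anxa13, the counterpart of a mammalian annexin of the gut epithelium, gave -0.15 (SE 0.10) at its brighter probe set and -0.24 (SE 0.14) at its dimmer one. Both anxa13 probe sets leaned the same way, but their groups overlapped and neither was called. anxa3b gave 2.98, 2.89 and 3.03 in EWS-FLI1 embryos, against 2.61, 3.05 and 2.86 in controls, a difference of 0.13 (SE 0.12). Both group means lay within the background reference at anxa3b, at 1 anxa13 probe set and at 3 of the anxa5b probe sets, 5 probe sets in all. For these a change in the transcript could not have been seen reliably.

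The 15 annexin probe sets of the chosen genes varied more among control pools than among EWS-FLI1 pools. The SD among arrays was higher in controls at 15 of the 15 annexin probe sets, and at 67.4% of all 15502 probe sets. Its median over the annexin probe sets was 0.07 in EWS-FLI1 embryos and 0.26 in controls. Over all probe sets the medians were 0.09 in EWS-FLI1 embryos and 0.14 in controls. The contrast was widest at anxa11a, with an SD of 0.02 in EWS-FLI1 embryos and 0.45 in controls. Not all annexins outside the chosen genes went this way. The SD of anxa11b was 0.14 in EWS-FLI1 embryos and 0.11 in controls. At the anxa1d probe set with the difference of -0.35 it was 0.18 in EWS-FLI1 embryos and 0.09 in controls. At anxa6, anxa13l and the other anxa1d probe set it was higher in controls. Control replicate 2 was the highest control array at 10 of the 15 annexin probe sets and at 30.8% of all probe sets. These probe sets include several of 1 gene and share their arrays, so the counts describe the 3 control pools only.

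**Figure D3:**
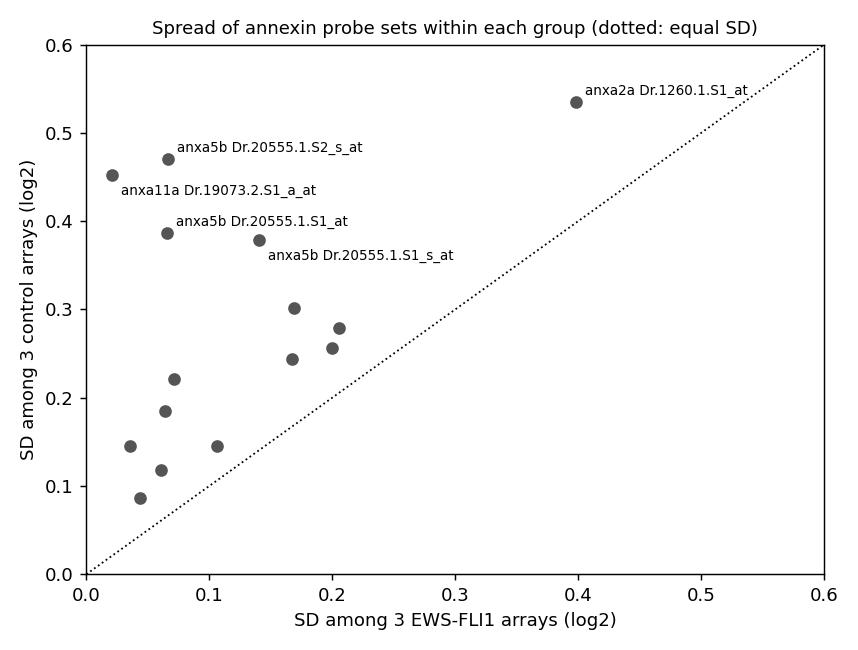
SD among the 3 EWS-FLI1 arrays (horizontal axis, log2) against SD among the 3 control arrays (vertical axis, log2) for the 15 annexin probe sets. The dotted line marks equal SD. Every point lies above it, with anxa2a at 0.40 and 0.54 and anxa11a at 0.02 and 0.45.

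The annexins outside the chosen 10 were few on the array: anxa6, anxa11b, anxa13l and anxa1d. anxa11b, the other annexin A11 copy, fell, with log2 values of 6.49, 6.75 and 6.54 in EWS-FLI1 embryos against 7.21, 7.0 and 7.13 in controls. The groups were apart by 0.25, and the difference was -0.52 (SE 0.10, limma adjusted p = 0.0128). That call was lost without EWS-FLI1 replicate 1 or 3, where the highest adjusted p was 0.0685. anxa6, whose product carries a doubled annexin core, gave 8.97, 8.85 and 8.89 in EWS-FLI1 embryos, against 8.63, 9.13 and 8.5 in controls, a difference of 0.15 (limma adjusted p = 0.637). anxa13l differed by 0.34 (limma adjusted p = 0.396) and was called without control replicate 2. anxa1d, described above, was called at 1 of its probe sets (difference -0.27) without control replicate 3. Both anxa13l and anxa1d were within the background reference in each group.

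S100 and other EF-hand genes, some of whose products bind annexins, were read by family. Of 14 measured genes among S100 and other EF-hand calcium binders, 2 rose, 1 fell and 11 were not called, with a median of 0.07 against 0.00 for all 8793 measured genes. In this way of counting, with 1 probe set per gene, 5.65% of all genes rose and 7.12% fell. pdcd6, whose mammalian product binds annexins A7 and A11, rose by 0.70 (limma adjusted p = 0.0289). s100b rose by 0.76 (limma adjusted p = 0.02), but its means, 3.51 in EWS-FLI1 embryos and 2.75 in controls, both lay within the background reference. Sorcin, encoded by sri, fell by 0.46 (limma adjusted p = 0.0467). None of these 3 calls held when each array was left out: those of pdcd6 and sri were lost without EWS-FLI1 replicate 1, 2 or 3 or control replicate 1, that of sri also without control replicate 3, with median centring, with quantile normalization and with the replicate block, and that of s100b without EWS-FLI1 replicate 1 or 3. The highest adjusted p was 0.122 for pdcd6, 0.169 for sri and 0.0926 for s100b. s100a10b, which encodes a zebrafish form of the annexin A2 partner and was named after its values were seen, gave 5.66, 5.53 and 5.48 in EWS-FLI1 embryos, against 5.34, 5.4 and 4.82 in controls. It differed by 0.37 (SE 0.15, limma adjusted p = 0.171), so no fall like that of anxa2a and anxa2b was called for it.

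The membrane repair list covers genes that act beside annexins at injured membranes, caveolar genes among them. Of its members, 5 of 24 measured genes fell, 1 rose and 18 were not called (median -0.12), where 7.12% of all measured genes fell and 5.65% rose. cav1, the main coat protein of caveolae, fell by 0.84 (SE 0.14, limma adjusted p = 0.00655), cavin2b, a caveolar adaptor, by 0.75 (SE 0.11, limma adjusted p = 0.00312) and cav2 by 0.59 (SE 0.12, limma adjusted p = 0.0145). Another cavin2b probe set, at -0.68, was not called (limma adjusted p = 0.0682). Without EWS-FLI1 replicate 1 or 2, cav2 lost its call, with an adjusted p of at most 0.07, and 2 further fallen genes of the list were not called without EWS-FLI1 replicate 1. ehd1b, an endocytic recycling ATPase, rose by 0.91 (SE 0.11, limma adjusted p = 0.0014). No gene of phosphatidylserine exposure and uptake was called among 6 measured (median -0.13), and plscr3b and tmem30b, with the largest differences, gave -0.26 and -0.19. Of the 6 genes, 2 were within the background reference in both groups, tmem30b among them. Before adjustment, 1 of the 6, plscr3b, passed limma's threshold of 0.05.

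Other calcium-dependent lipid binders, those with C2 domains, had 3 raised, 1 fallen and 11 uncalled genes of 15 (median -0.04). Of all measured genes, 5.65% rose and 7.12% fell. Of the 15, 9 were within the background reference in both groups. unc13d rose by 6.51, syt9a, a synaptotagmin, by 1.89 and otofa, an otoferlin gene, by 0.71, each with a control mean within the background reference. The EWS-FLI1 mean of otofa, 3.98, was within that reference too. The copine gene cpne1 fell by 0.49 (SE 0.08, limma adjusted p = 0.00567). In the plasminogen system, in which mammalian ANXA2 serves as a cell surface receptor, 1 of 7 genes rose and 6 were not called (median -0.06). Of the 7, 4 were within the background reference in both groups. The raised gene was serpine2, a protease inhibitor, at 0.78 (SE 0.15, limma adjusted p = 0.0123), whose adjusted p reached 0.0645 in the fits that left out EWS-FLI1 replicate 1 or 3, where it was not called.

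**Figure D4:**
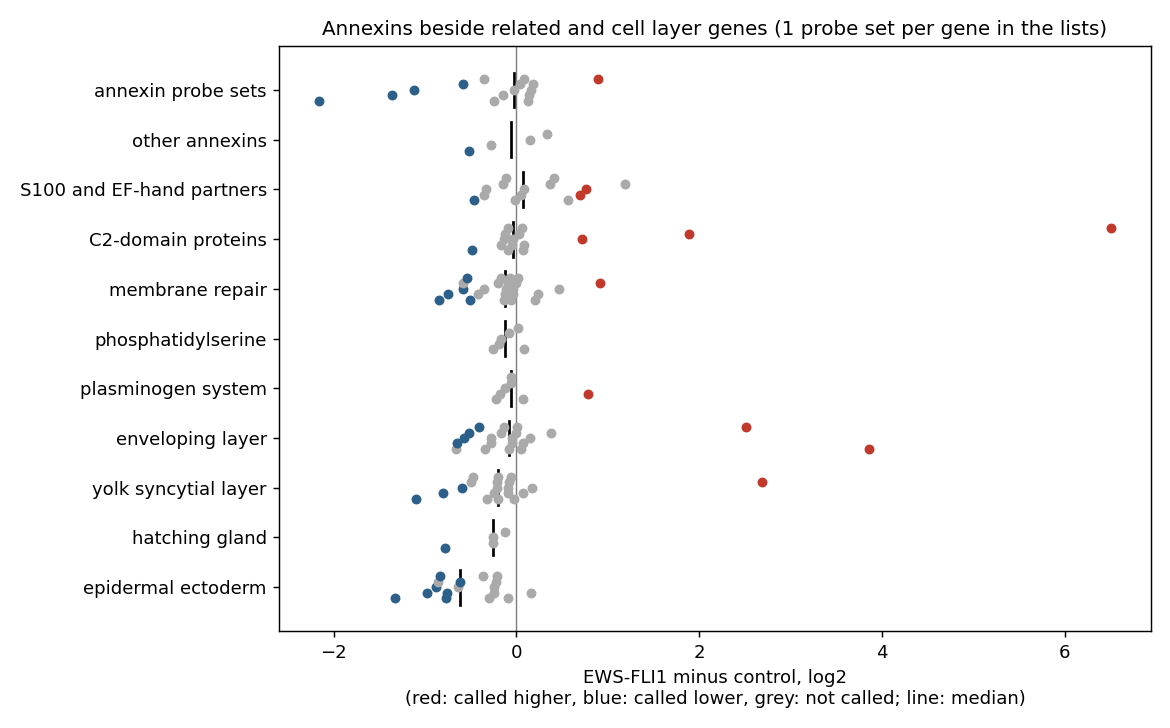
Log2 difference, EWS-FLI1 mean minus control mean (horizontal axis), of the annexin probe sets (top row) and of each measured gene of the related and cell layer lists, with 1 probe set per gene in the lists. Red, blue and grey points are called rises, called falls and genes not called, and the black line is the median of each row. The median of the annexin row is -0.03, and that of epidermal ectoderm, -0.61, is the lowest. The annexin row counts every probe set, several of them of anxa5b, so its median is not on the same footing as those of the lists.

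Markers of the enveloping layer, yolk syncytial layer, epidermal ectoderm and hatching gland were read beside the annexins. Over all measured genes, 5.65% rose and 7.12% fell. In the enveloping layer, an epithelium that covers the gastrula, 4 of 21 measured markers fell, 2 rose and 15 were not called (median -0.08). Their mean log2 level was 7.80 to 7.97 on EWS-FLI1 arrays and 7.67 to 7.78 on control arrays. krt94 and krt18b, the 2 that rose, were left out after their values were seen. The mean of the other 19 was then 7.917 to 8.082 on EWS-FLI1 arrays and 8.097 to 8.224 on control arrays. The order of the groups thus depends on these 2 markers. krt94 rose by 3.86 and krt18b by 2.51, each with a control mean within the background reference, so the size of these rises depends on the background. elf3 fell by 0.65, a call lost without EWS-FLI1 replicate 1 (adjusted p = 0.057), and evplb fell by 0.57. The other 2 fallen markers, evpla and ppl, named after their values were seen, lost their calls without EWS-FLI1 replicate 1, 2 or 3 or control replicate 1 or 2. That of ppl was also lost with the replicate block (adjusted p = 0.0515) and that of evpla with quantile normalization (adjusted p = 0.0531). The 7 markers with a mean log2 value above 11 (krt4, krt5, krt8, krt17, krt18a.1, krt97 and lye) differed by -0.34 (krt97) to -0.05 (krt18a.1). None was called, and the limit was set after their values were seen. Differences at krt8, krt17 and krt18a.1 were smaller than their SE. Of the uncalled markers under the limit, epcam (0.003, mean 10.86), krt91 (0.38), cldnf (0.15), agr1 (0.07) and cldne (0.05) lay above 0. Below 0 were sdr16c5b (-0.66), grhl1 (-0.27) and krt93 (-0.01). That all 7 lay below 0 thus depends on the limit, and nothing is read from it. The agr1, cldne and evpla means did not exceed the background reference in either group. Of 19 yolk syncytial layer genes, 3 fell, 1 rose and 15 were not called (median -0.20), with mean levels of 7.998 to 8.044 on EWS-FLI1 arrays and 8.011 to 8.249 on control arrays. slc40a1 rose by 2.69 with a control mean within the background reference, and fn1b fell by 0.80, fn1a by 0.59 and apoa4b.1 by 1.097, the last losing its call without EWS-FLI1 replicate 1, 2 or 3 and under a trended robust prior (highest adjusted p = 0.141). The other fn1a probe sets were not called, with -0.14 and -0.30, the latter within the background reference in both groups. The mxtx2, apoea and rbp4 markers of that layer were within the background reference in both groups.

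Of 17 epidermal ectoderm genes, 7 fell and 10 were not called (median -0.61), where 7.12% of all measured genes fell. Their mean levels were 7.66 to 7.92 on EWS-FLI1 arrays and 8.19 to 8.55 on control arrays. tp63 fell by 1.33, dlx3b by 0.97, tfap2a by 0.88 and tfap2c by 0.84, the last not called in the fits that left out control replicate 1, EWS-FLI1 replicate 1 or EWS-FLI1 replicate 2, with an adjusted p of up to 0.0835. Of 4 hatching gland genes, 1 fell (klf17, by 0.78) and 3 were not called (median -0.26). The part of any of these layers in the annexin differences was not tested. RNA integrity, read as the 3' minus 5' signal of the GAPDH controls, was 1.1, 1.28 and 1.25 in EWS-FLI1 embryos and 0.87, 0.69 and 0.92 in controls, and its part was not tested either. That of acta1 was -0.5, -0.36 and -0.41 in EWS-FLI1 embryos and -0.19, -0.33 and 0.2 in controls.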

How the data were processed

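The authors deposited a log2 RMA value for every probe set on every array, made with RMA in the affy package under R 2.2.0, per the submitters' processing notes. This step subtracts background, brings the arrays to 1 distribution and shrinks small differences of dim probe sets. The log base was inferred from the range, 1.58 to 13.46. Array medians were 5.07 to 5.12, and the number of arrays limits the precision. The array has 15617 probe sets, and its 115 manufacturer controls were not tested. Of the 15502 tested, 10795 had 1 gene symbol, 135 several and 4572 none listed. Entrez identifiers matched RefSeq (GRCz12tu) for 10711. RefSeq gave these their current symbols, by which the annexins and list genes were picked, and the gene order. Group means were compared per probe set in limma 3.58.1 under R 4.3.3 (lmFit, eBayes, two-sided), with Benjamini-Hochberg adjustment over all 15502, and the fit was tested on simulated data. Plots used matplotlib 3.10.9 in Python 3.11.15. The labels call the samples biological replicates, and p-values measure the spread between pools.

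The members and gene lists were chosen with earlier results of these data known. The naming rule took every annexin, up to 4 called genes with the largest differences per list (or the 2 largest where none was called), and the 5 closest profiles to the annexin probe sets with the largest fall and rise. The lists were S100 and EF-hand genes, C2-domain proteins, membrane repair, phosphatidylserine exposure, the plasminogen system and 4 sets of cell layer markers. Alternatives were a replicate block, leaving out each array or dim probe sets, median centring, quantile normalization, a trended robust prior, array weights and 1 probe set per gene.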

Additional observations from a re-analysis of the deposited data

How the results depend on the processing

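The 11 or 12 alternative fits that gave the annexin probe sets a value made 4 falls and 1 rise each. As the genes were chosen from this comparison, these counts are a description and no support for the differences. With 1 probe set per gene, that with the highest mean, the annexin rises numbered 0, since anxa4's other probe set drops out only by its lower mean, and the falls 4. Over the whole array, the counts with 1 array left out ran from 450 to 1023 rises and from 433 to 1286 falls, the lowest without EWS-FLI1 replicate 1, against 834 and 1001 with all arrays. Rises were 534 and 454 without EWS-FLI1 replicates 2 and 3, and falls 572 and 519. With the replicate block they were 705 and 871, and the annexin calls were unchanged. Deviations of same-numbered arrays from their group means correlated at -0.08, -0.10 and -0.08. With 3 arrays per group such values depend on each other, so they cannot show whether these arrays shared a clutch or batch. The labels do not say. The settings for genes outside the annexin 10 were added after seeing the data, and 13 of those 39 probe sets lost a call in at least 1 of them. The 39 include the probe sets of anxa6, anxa13l and anxa1d, which had no call to lose. The signal over background limits anxa2b, anxa3b, anxa5b and anxa13 most. Groups of 3 arrays cannot show small differences of variable genes such as anxa11a.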

Other observations

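By the root mean square difference between profiles over the 6 arrays, each taken relative to its own control mean, the probe sets closest to anxa2a were those of tmem263 (0.25), plekhf1 (0.30), znhit1 (0.37), rbfox2 (0.41) and irf1b (0.45). The profiles of anxa2a and tmem263 both had replicate 1 as the lowest array of each group, with tmem263 at 4.46, 4.69 and 4.81 in EWS-FLI1 embryos and at 6.39, 7.24 and 7.41 in controls. Closest to the raised anxa4 probe set were ndel1b (0.11), ehd1b (0.12), hsp90b1 (0.12), znf451 (0.14) and klf3 (0.15). Of these, ehd1b belongs to the membrane repair list, with 7.86, 7.68 and 7.71 in EWS-FLI1 embryos against 6.98, 6.9 and 6.64 in controls. These genes were picked for their likeness, so it is a description with no test.

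Of the 20 places directly beside the 10 annexins in the RefSeq gene order, 8 held a gene measured on the array. Besides annexins, these were pmpca beside anxa1b, ice2 beside anxa2a, rorab beside anxa2b, uchl1 beside anxa5b and dlg5a beside anxa11a. Their differences ran from -0.20 (rorab) to 0.10 (uchl1), and none was called. The rorab means, 2.74 in EWS-FLI1 embryos and 2.94 in controls, lay within the background reference, so a change there could not have been seen reliably. ice2, next to anxa2a, differed by 0.01 (limma adjusted p = 0.969), where anxa2a itself differed by -2.16. The ice2 means, 4.58 in EWS-FLI1 embryos and 4.57 in controls, lay little above the background reference of 4.23. A fall as large as that of anxa2a could therefore not have shown there. The gene on the other side of anxa2a was not measured. The genes beside anxa4 were not measured by a probe set named for them alone.

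s100a1, outside the naming rule and singled out after its values were seen, had the widest control spread of the 14 measured S100 and EF-hand genes. Its log2 values were 10.38, 10.17 and 10.28 in EWS-FLI1 embryos, against 8.06, 10.1 and 9.1 in controls, a difference of 1.19 (SE 0.41, limma adjusted p = 0.106).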
